A study of Arabidopsis thaliana with 7 samples.

Results

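The subunits of eukaryotic translation initiation factor eIF3 were followed through male gametophyte development of Arabidopsis thaliana. The genes were those given a name that starts with AteIF3 in a sheet of core translation factors that accompanied the study, and each was matched by its locus to an array probe set listed with exactly 1 gene. Of 13 eIF3 genes in the sheet, 2 were matched, AteIF3D-1 (AT4G20980, probe set 254438_at) and AteIF3D-2 (AT5G44320, probe set 249040_at), both genes of the eIF3d subunit. They were 2 of 32 matched genes among the 82 core translation factor genes of the sheet, and 2 of 13286 genes that had a locus and a probe set listed with 1 gene. The other 11 were not analysed here: AteIF3A-1 (AT4G11420), AteIF3B-2 (AT5G25780), AteIF3C-1 (AT3G56150), AteIF3C-2 (AT3G22860), AteIF3E-1 (AT3G57290), AteIF3F-1 (AT2G39990), AteIF3G-1 (AT3G11400), AteIF3G-2 (AT5G06000), AteIF3H-1 (AT1G10840), AteIF3I-1 (AT2G46280) and AteIF3K-1 (AT4G33250). These 11 had no match in the annotation table used, which lists no gene for 8730 probe sets. The lack of a match says nothing about their expression. The values below therefore describe eIF3d, apart from signals of 3 eIF3m and eIF3j genes from outside the sheet.

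eIF3 is the largest of the initiation factors. It binds the small ribosomal subunit, holds together the other factors of the preinitiation complex and helps to bring the mRNA to it. eIF3d is one of its subunits, and in human cells it can bind the cap of certain mRNAs. In many plants pollen development ends with a grain that carries stored mRNAs and ribosomes, which are used in translation when the pollen tube grows.

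RNA was taken from wild-type plants of ecotype Ler-0 (Landsberg erecta) without genetic modification, kept on compost at 21 °C with 16 h light and harvested at growth stage 5.10. Spores at 4 stages were hybridized to 7 ATH1 arrays: uninucleate microspores (UNM, n = 2), bicellular pollen (BCP, n = 2), tricellular pollen (TCP, n = 2) and mature pollen grains (MPG, n = 1). The first 3 stages were separated on Percoll gradients from spores of many pooled plants, with replicates from independently grown populations, and MPG came from open flowers. The BCP and TCP isolates also held some spores of neighbouring stages, so that the arrays of these 2 stages report mixtures in which 1 stage predominates.

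The arrays carried 22746 probe sets other than controls, of which 9028 to 11446 had a signal of at least 40 array units. In bulk RNA, fewer cells of a type and less RNA per cell cannot be told apart. RNA quality differed between replicate numbers: the log2 ratio of the 3′ to the 5′ control probe set of GAPDH, which grows as RNA is degraded or copied incompletely, was 0.63 to 1.06 on the replicate 1 arrays, 2.76 to 3.19 on the replicate 2 arrays and 1.21 on the MPG array. Both numbers occurred at UNM, BCP and TCP. Of the marker genes with a symbol in the annotation used, the tapetum regulator AMS (1 of 6 listed) had signals of 0.81 to 24.4. AMS was highest in TCP, and the leaf gene RCA (1 of 4) had 44.0 to 173. A pair of further genes on the tapetum list, A9 (AT5G07230) and EXL5 (AT1G75920), were highest in UNM. AT5G07230 had 22.0 and 27.4 in UNM and 1.41 to 12.6 on the other arrays, and AT1G75920 had 33.9 and 43.3 in UNM and 1.41 to 26.7 on the others. The part of such cells in the eIF3d signals was not tested. The meiotic cyclin gene SDS (1 of 3) had 45.7 and 72.0 in UNM, 45.2 and 56.9 in BCP, 27.3 and 22.4 in TCP and 43.5 in MPG. The sperm histone gene MGH3 (1 of 4) lay between 104 and 356 in UNM and BCP and between 2372 and 2897 in TCP and MPG. The pollen receptor kinase genes ANX1 and ANX2 (2 of 5) were at most 24.4 in UNM and BCP and at least 844 in TCP and MPG, so the early and late labels differed in these pollen markers.

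AteIF3D-2 gave high signals early and low signals late. It stood at 1015 and 993 in the 2 UNM arrays (1004 ± 15.4, SD, n = 2). The BCP arrays gave 949 and 846 (898 ± 72.4, n = 2). In TCP the signals were 156 and 126 (141 ± 21.1, n = 2), and the single MPG array gave 75.2. Both TCP arrays lay below every UNM and BCP array, and the MPG array lay below both TCP arrays. BCP kept 89.4%, TCP 14.0% and MPG 7.48% of the UNM mean.

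AteIF3D-1 ran through the same order of stages, with replicates that lay further apart. Its UNM signals were 216 and 170 (193 ± 32.6, SD, n = 2) and its BCP signals 228 and 141 (184 ± 61.4, n = 2), so that these stages overlapped. TCP gave 36.3 and 15.0 (25.7 ± 15.0, n = 2), both below all UNM and BCP arrays. MPG gave 7.35, under the lower quartile of that array (8.56). Signals under 20 were raised to 20 before tests, so that the second TCP array and the MPG array carry only an upper bound for this gene. Its TCP mean was 13.3% of the UNM mean, and its MPG signal was 3.82% as measured and 10.4% with the floor.

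**Figure D1:**
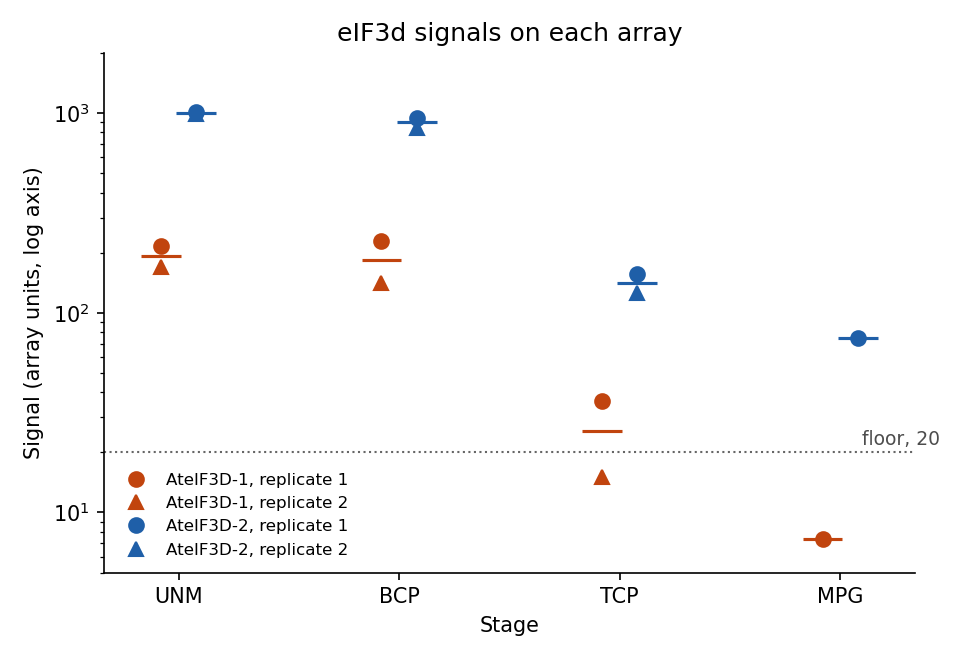
Signals of AteIF3D-1 and AteIF3D-2 on each of the 7 arrays, in array units on a log axis, by stage; circles are replicate 1, triangles replicate 2 and bars the stage means. AteIF3D-2 lies between 846 and 1015 in UNM and BCP and between 75.2 and 156 in TCP and MPG, while AteIF3D-1 falls below the floor of 20 (dotted line) on the second TCP array and in MPG.

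Replicate 1 was the higher array for both genes at all 3 replicated stages. The replicates of AteIF3D-1 differed 1.27-fold in UNM, 1.62-fold in BCP and at least 1.81-fold in TCP, where the second array was floored, and those of AteIF3D-2 differed 1.02-fold, 1.12-fold and 1.24-fold. The replicate 2 arrays were also those with the higher GAPDH ratio. The part of RNA quality in these differences, or in the falls given below, was not tested. The falls from BCP to TCP were present within each replicate number.

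The first comparison asked whether the 2 genes changed when the microspore divided to form bicellular pollen. Neither passed the test. AteIF3D-1 moved by −0.09 on the log2 scale (SE 0.38) and AteIF3D-2 by −0.16 (SE 0.19), with limma adjusted p-values of 0.96 and 0.75. AteIF3D-2 was lower in BCP within both replicate numbers (1.07-fold and 1.17-fold), and both of its BCP arrays lay below both UNM arrays. AteIF3D-1 was higher in BCP within replicate 1 and lower within replicate 2. The direction of AteIF3D-1 also turned with scaling to spiked controls or without UNM replicate 1 or BCP replicate 2. Neither of the 2 genes had an unadjusted p under 0.05 in limma. The comparison had the fewest calls of the 5, with 0.494% of the 14364 probe sets tested falling and 2.03% rising. Without any single UNM, BCP or TCP array, limma called 0 probe sets here, with 1439 to 2238 at an unadjusted p under 0.05.

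Between BCP and TCP, when the generative cell divides into the sperm cells, both genes fell. AteIF3D-2 dropped 6.39-fold, a log2 change of −2.68 (SE 0.19, limma adjusted p = 0.00015). Within replicate numbers its drop was 6.09-fold and 6.71-fold. AteIF3D-1 dropped at least 6.66-fold, a log2 change of −2.73 on floored signals (SE 0.38, limma adjusted p = 0.0016). Within replicate 1, where no signal was floored, it dropped 6.28-fold, and within replicate 2 at least 7.05-fold.

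Falls were common at this transition: 37.5% of all probe sets tested fell and 19.0% rose, with a median log2 change of −0.33. The count of 2 falling eIF3d genes of 2 is to be read against that share. By size, 5.03% of probe sets tested fell further than the floored value of AteIF3D-1 and 5.37% further than AteIF3D-2. Relative to the median of all probe sets, the changes were −2.41 and −2.35. Quantile normalization moved that median to −0.03 and the calls from 2726 rising and 5391 falling to 3694 and 4330, and the changes relative to it were then −2.38 and −2.70. Scaling to spiked controls moved the median the other way, to −0.60, and left 953 rising and 2300 falling (15.6%), and both eIF3d genes were still called.

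From TCP to MPG, neither gene passed the test. AteIF3D-2 went from a TCP mean of 141 to 75.2, a log2 change of −0.90 (SE 0.23), with an unadjusted p of 0.0087 and an adjusted p of 0.060 in limma. The MPG signal was 2.07-fold below the first TCP array and 1.68-fold below the second. With the replicate number as a block, the change was −0.98 and the limma adjusted p was 0.037. For AteIF3D-1, a log2 change of −0.43 (SE 0.46, limma adjusted p = 0.62) rests on floored signals, and nothing could be read below the floor. Here 7.43% of probe sets tested fell and 5.02% rose. These shares were smaller in every fit that left out 1 UNM, BCP or TCP array. They vanished without either TCP replicate or with only the arrays compared. Such fits also have fewer residual degrees of freedom, and the part of that in the loss was not tested. MPG was 1 array, whose spread was taken from the other stages.

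**Figure D2:**
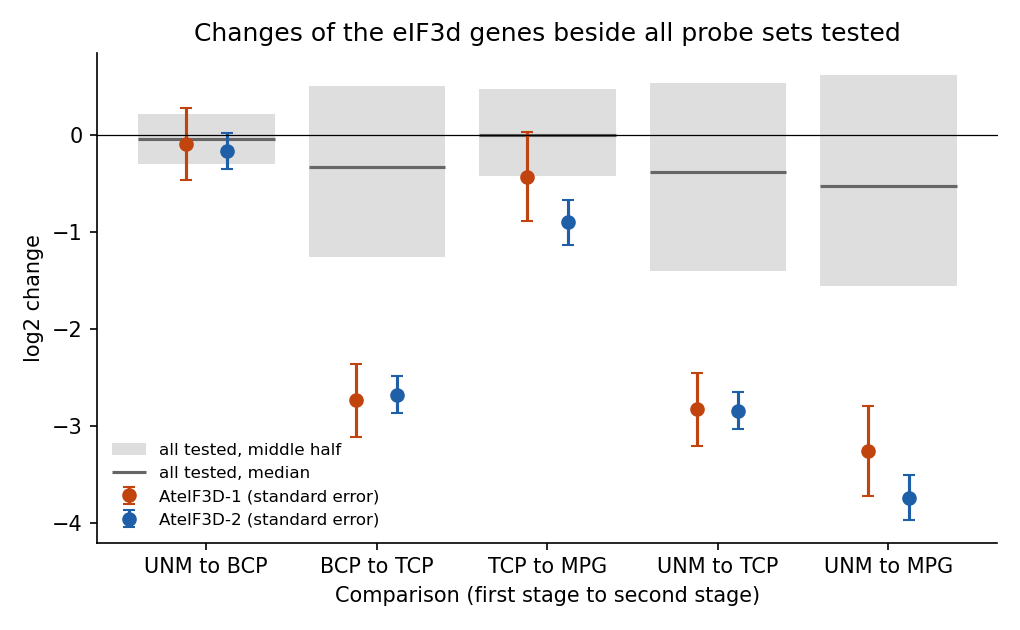
log2 change of AteIF3D-1 and AteIF3D-2 in each of the 5 comparisons, with bars of 1 standard error from limma; grey boxes run from the lower to the upper quartile of the 14364 probe sets tested, with their median as a line. Both genes lie within or near the box from UNM to BCP and far below it in the 3 comparisons of an early with a late stage, where AteIF3D-1 is a bound set by the floor.

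The comparisons that span several transitions share arrays with those above and are given for their sizes. From UNM to TCP, AteIF3D-2 fell 7.16-fold (log2 change −2.84, SE 0.19, limma adjusted p = 8.8e-05) and AteIF3D-1 at least 7.10-fold (−2.83, SE 0.38, adjusted p = 0.0012), where 39.7% of probe sets tested fell and 20.9% rose. From UNM to MPG, AteIF3D-2 fell 13.4-fold (−3.74, SE 0.23, limma adjusted p = 0.00012) and AteIF3D-1 at least 9.56-fold (−3.26, SE 0.46, adjusted p = 0.0018), where 40.4% of probe sets tested fell and 20.1% rose. Of all probe sets tested, 1.11% fell further than AteIF3D-2 between these end stages and 2.92% further than the floored value of AteIF3D-1. With quantile normalization, 3903 probe sets rose and 4673 fell from UNM to TCP, in place of 2996 and 5704, and 3669 rose and 4815 fell from UNM to MPG, in place of 2880 and 5808.

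By level, UNM and BCP stood at the top for both genes, without a difference that passed the test, and TCP lay below both. The MPG signal of AteIF3D-2 was the lowest of its arrays, again without a difference from TCP that passed the test. For AteIF3D-1 the order of TCP and MPG cannot be read, since the second TCP array and the MPG array were both under the floor.

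The eIF3d genes were then compared with each other within each array. The log2 signal of AteIF3D-2 minus that of AteIF3D-1, which also depends on how well each probe set hybridizes, averaged 2.39 in UNM and 2.32 in BCP. In TCP it was at least 2.38 and in MPG at least 1.91, since AteIF3D-1 was at the floor on the second TCP array and in MPG. On the replicate 1 arrays, where neither gene was floored before MPG, it was 2.24 in UNM, 2.06 in BCP and 2.10 in TCP. A difference between the falls of the 2 genes was not shown. Outside the sheet, 3 genes of the subunits eIF3m and eIF3j were measured and are given as signals only. For UNM, BCP, TCP (means) and MPG, eIF3m-1 had 772, 711, 120 and 170. In the same order eIF3m-2 had 375, 375, 130 and 152, and eIF3j-1 had 254, 216, 90.5 and 150. For each, the MPG signal lay above both TCP arrays, unlike eIF3d. These differences were not tested.

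Among the 8241 other single-gene probe sets with named loci that were compared, those whose profiles lay nearest to the mean eIF3d profile followed it closely. Nearness was the root mean square difference of log2 signals over the 7 arrays, each profile centred on its own mean. It was 0.090 for AT5G44710, which had stage means of 463 in UNM, 417 in BCP, 66.2 in TCP and 46.1 in MPG. The next were AT2G18400 (0.145), AT5G16060 (0.146), AT3G13580 (0.148) and AT2G21580 (0.182). The median over all candidates was 1.37. The 2 eIF3d genes lay 0.274 from each other, and 39 candidates lay closer to AteIF3D-2 than AteIF3D-1 did.

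The other core translation factors of the sheet showed how far the eIF3d pattern was shared. Of 30 measured, 27 passed the minimum signal. From UNM to BCP, limma called 0 rising and 0 falling, with 4 at an unadjusted p under 0.05. From BCP to TCP, 17 of the 27 fell, against 37.5% of all probe sets tested, and 2 rose, against 19.0%. The other 8 did not pass the test, and the median log2 change was −1.20. With scaling to spiked controls 3 of the factors fell and 1 rose, and with no minimum signal 11 fell. With signals floored at 20, AteEF1B-A1, AteIF3D-1 and AteIF3D-2 had the 3 falls above 4.60-fold among the 29 factors tested. The first 2 of these are lower bounds, so the order of the 3 cannot be read. The falls of AteEF2-2, AteIF2-B2, AteIF5B-4 and the eIF4G-like gene AT4G30680 are lower bounds too. Whether any of them fell as far cannot be read.

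**Figure D3:**
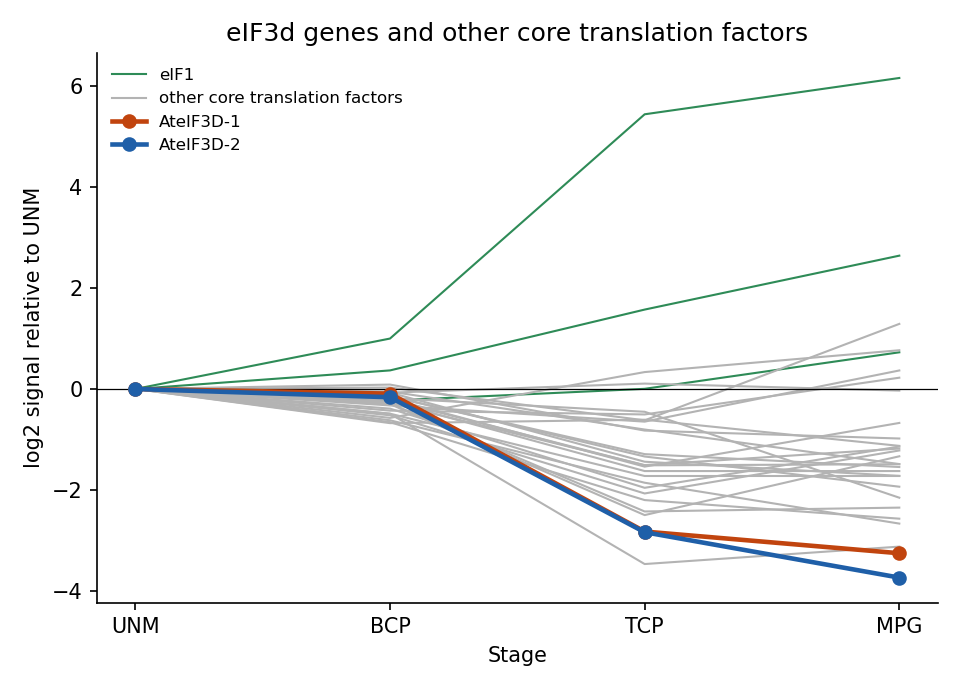
Mean log2 signal of each of the 29 core translation factors tested, relative to its own UNM mean, by stage, with AteIF3D-1 in orange, AteIF3D-2 in blue, eIF1 genes in green and the others in grey; signals under 20 count as 20. The eIF3d lines stay close to 0 in BCP and reach −2.83 and −2.84 in TCP, and the uppermost green line is AteIF1-4.

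Several families of factors had members that fell at this transition, at which 37.5% of all probe sets fell. They were eIF2 (3 of 4 tested), which brings the initiator tRNA, eIF2B (4 of 5), which recharges eIF2 with GTP, and the eIF4 group (3 of 4). The eIF4 genes that fell were RH23, listed as eIF4A-like, AT4G38710, listed with a question mark as eIF4B, and the eIF4G-like AT4G30680. AteIF4A-2 did not pass the test, with 1722 in BCP and 1431 in TCP. No gene of the cap-binding factor eIF4E was measured here. The elongation factors (3 of 3) fell too. AteEF1B-A1, a subunit gene of the exchange factor of elongation factor eEF1A, fell from 166 to 20.9 (at least 7.89-fold, limma adjusted p = 0.00011). AteIF2B-E1 fell from 106 to 22.9 (4.60-fold, limma adjusted p = 0.00036), and AteEF1B-A2, a second subunit gene of that factor, from 3559 to 834 (4.41-fold, adjusted p = 0.0012). Neither of the 2 eIF5 genes passed the test.

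The eIF1 genes took the other direction. eIF1 sits beside eIF3 in the preinitiation complex and helps to select the start codon. AteIF1-4 rose from 76.1 in BCP to 1658 in TCP (21.8-fold, limma adjusted p = 6.5e-05), and AteIF1-3 from 149 to 343 (2.31-fold, adjusted p = 0.0036). AteIF1-1 stood at 435 and 512 and did not pass the test.

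From TCP to MPG, where eIF3d was not called, 3 of the 27 other factors rose and 1 fell, against 5.02% rising and 7.43% falling over all probe sets tested. AteIF2B-A2 rose 3.76-fold (limma adjusted p = 0.031), AteIF2B-E1 rose 2.24-fold (adjusted p = 0.039) and AteIF1-3 rose 2.10-fold (adjusted p = 0.047), while AteIF4A-2, an RNA helicase gene, fell 3.26-fold (adjusted p = 0.034). Without any single UNM, BCP or TCP array, limma called 0 of these.

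From UNM to TCP, 17 of the 27 fell and 2 rose, with a median log2 change of −1.34 against −0.38 over all probe sets tested. Of all probe sets tested, 39.7% fell and 20.9% rose there. Over the whole course from UNM to MPG, 17 of the 27 fell and 4 rose, with a median of −1.22 against −0.53. Of all probe sets tested, 40.4% fell and 20.1% rose over that course. With signals floored at 20, both eIF3d genes fell further than any other of the 29 factors tested. The falls of AT5G65250 (76.8 to 6.15), AteIF2-B2 and the eIF4G-like gene AT4G30680 are lower bounds, however. The sheet lists AT5G65250 under PABP, with question marks in its name. The order of these genes against the eIF3d genes cannot be read. Which of the 2 eIF3d genes fell further cannot be read either. With a floor of 10, the log2 change of AteIF3D-1 was −4.26 against −3.74 for AteIF3D-2. AteEF1B-A1 fell from 234 to 26.7 (8.73-fold, limma adjusted p = 0.00020). AteIF1-4 went from 38.0 to 2720 over the same stages (71.8-fold, limma adjusted p = 3.8e-05).

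The COP9 signalosome and the lid of the proteasome are built on the same kinds of subunit domains as the core of eIF3. This likeness is one of complexes and is not claimed for eIF3d itself. Given here is 1 measured gene of each with a symbol in the annotation used. For the lid, 4 more measured genes without a symbol are given as signals only, without a test. CSN5B, the deneddylating subunit of the signalosome, fell from 104 in BCP to 5.49 in TCP (at least 5.18-fold, limma adjusted p = 0.00024). RPN12a, a lid subunit, fell from 843 to 231 (3.64-fold, adjusted p = 0.00043). From TCP to MPG neither passed the test, with signals of 28.0 and 195 in MPG.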

How the data were processed

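The authors deposited 1 table of microarray signals (intensity on a linear scale, 22810 Affymetrix ATH1 probe sets, 7 arrays), made from oligo(dT)-primed, in vitro transcribed RNA. For the program that computed these deposited signals, the sources used here name none. Every deposited column was matched to a sample by its label. The number of arrays limits the precision.

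The 64 control probe sets were set aside. Arrays were brought to a common 2% trimmed mean of 100, a floor of 20 was set on the signals, and values were put on the log2 scale. The 14364 probe sets that reached 40 on any array were fitted in limma 3.58.1 (R 4.3.3) with stage as the only factor over all 7 arrays, which left 3 residual degrees of freedom. p-values were adjusted by Benjamini-Hochberg within each comparison, and the threshold was 0.05. A fold is the ratio of geometric means, and "at least" marks a lower stage with a floored array. Scripts were tested on simulated data.

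Of the probe sets, 13513 were listed with 1 gene, 503 with several and 8730 with none in the annotation table used. Loci and symbols followed RefSeq. Of 52 genes in the hand-made lists of markers and related complexes, 8 were measured and carry a symbol in the annotation used. A further 9 were measured but carry only a locus there. Of these, the 2 tapetum genes, the 4 proteasome lid genes and 3 listed as other eIF3 genes are given as signals only. The last were eIF3m-1, eIF3m-2 and eIF3j-1. The text names every matched eIF3 gene of the sheet, the largest called changes of other factors, and the 5 nearest profiles. Members and lists were chosen with earlier results of these data known. Sequences and promoter motifs were not analysed here.

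Replicate numbers came from the titles. The differences between replicates 1 and 2 correlated across stages. Here r was 0.44 for UNM and BCP, 0.22 for UNM and TCP and 0.28 for BCP and TCP. It was taken across probe sets, which are not independent. Folds were therefore also given within replicate numbers. The main fit held no term for the number, which entered only as a block in an alternative. Alternatives were array scaling (deposited, quantile, spiked controls), floors of 10 and 40, no minimum signal or 80, only the arrays compared, a mean-variance trend, the replicate block and leaving out single arrays.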

Additional observations from a re-analysis of the deposited data

How the results depend on the processing

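The falls of both eIF3d genes from BCP to TCP, UNM to TCP and UNM to MPG passed the limma threshold under all 16 alternatives. From BCP to TCP the log2 change of AteIF3D-1 lay between −3.16 and −2.16 (adjusted p 0.0003 to 0.025) and that of AteIF3D-2 between −2.95 and −2.52 (3.3e-05 to 0.0047). From UNM to MPG, AteIF3D-1 ranged from −4.26 to −2.26, since its MPG signal is the floor itself, and AteIF3D-2 from −3.82 to −3.62. From TCP to MPG, 0 of the eIF3d genes were called in limma and 1 had an unadjusted p under 0.05. The number that fell was 1 with a floor of 40, a minimum signal of 80, a mean-variance trend or the replicate block. That gene was AteIF3D-2 (adjusted p 0.040, 0.036, 0.034 and 0.037), whose range was −1.05 to −0.72 (adjusted p 0.034 to 1). The block changed no other eIF3d call. From UNM to BCP the change of AteIF3D-1 turned to 0.0021 with scaling to spiked controls, 0.08 without UNM replicate 1 and 0.25 without BCP replicate 2, none of them past the threshold, and its range without single arrays was −0.44 to 0.25. The cause was not tested.

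Among the other translation factors, 17 fell from BCP to TCP, but 3 with scaling to spiked controls and 11 with no minimum signal. With spiked controls 1 rose in place of 2. That scaling also gave 7 falls in place of 17 and 1 rise in place of 2 from UNM to TCP, and 4 falls in place of 17 and 2 rises in place of 4 from UNM to MPG. Rises from UNM to MPG were also 2 with only the arrays compared and without either UNM replicate. From TCP to MPG, the 3 rises and 1 fall became 0 with spiked controls, no minimum signal or only the arrays compared, and 2 fell with a floor of 10, a minimum of 80 or a trend. From UNM to BCP, 1 rose with a minimum of 80 or a trend. With scaling to spiked controls, the calls over all probe sets were 39 rising and 3 falling from UNM to BCP, 1270 and 2651 from UNM to TCP, 1169 and 1639 from UNM to MPG, and 1 rising and 0 falling from TCP to MPG, where 423 had an unadjusted p under 0.05 in limma. Averaging over probe sets was not run because each eIF3d gene has 1.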
